A study of Mus musculus with 2 samples.

Results

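The genes described here are 38 genes of the SRF, YAP and actin cytoskeleton system, chosen by symbol and read from the probe sets that the array annotation gives to them and to no other gene. They have 84 of the 45101 probe sets of the array, of which 3 are array controls for Actb. HT22 is a nerve line of the mouse hippocampus, here exposed in DMEM with serum to the neurotrophic compound J147 for 1 h, against the same line exposed to its solvent DMSO (vehicle) for 1 h. The concentration of J147 is 10 μM in the study's methods but 10 mM in the sample labels. The control is DMSO vehicle in its sample title but untreated in its treatment label. RNA of each culture went on 1 Affymetrix Mouse Genome 430 2.0 array, so there was 1 array per condition and no replicate. No p-value can be given, and the effect of J147 and other differences between the 2 cultures cannot be told apart. HT22 is a single line, and in such bulk RNA fewer cells of a kind and less RNA per cell cannot be told apart.

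YAP (Yap1) and its relative TAZ (Wwtr1) are co-activators without DNA-binding domains of their own. They enter the nucleus when the Hippo kinases LATS1 and LATS2 are quiet and act there through the TEAD factors on genes of adhesion and matrix. SRF binds CArG boxes and works with 2 kinds of partner: TCF proteins, which answer ERK signalling at immediate early genes, and MRTF proteins, which are released from monomeric actin when actin polymerises and which act on genes of the cytoskeleton itself. Both systems respond to serum and cell tension, and several of their targets are transcribed within an hour of a stimulus.

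The promoters of 6 genes are printed because they show which of the 2 motifs lies close to the start of genes that the values below turn on. Each is the 250 bases before the RefSeq start of the gene in GRCm38.p6, 5′ to 3′ on the strand of the gene, with the TEAD motif GGAATG (or CATTCC, its reverse complement) or a CArG box in capitals. They lie at chr3:145649986-145650235 (Ccn1, minus strand), chr9:102717554-102717803 (Amotl2, plus), chr17:46556163-46556412 (Srf, minus), chr11:120348496-120348745 (Actg1, minus), chr14:20929148-20929397 (Vcl, plus) and chr12:8500010-8500259 (Rhob, minus).
Ccn1: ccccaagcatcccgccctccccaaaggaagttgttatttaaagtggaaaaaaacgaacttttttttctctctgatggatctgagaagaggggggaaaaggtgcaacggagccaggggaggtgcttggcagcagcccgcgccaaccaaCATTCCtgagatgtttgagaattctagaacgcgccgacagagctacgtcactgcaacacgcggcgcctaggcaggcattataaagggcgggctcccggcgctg
Amotl2: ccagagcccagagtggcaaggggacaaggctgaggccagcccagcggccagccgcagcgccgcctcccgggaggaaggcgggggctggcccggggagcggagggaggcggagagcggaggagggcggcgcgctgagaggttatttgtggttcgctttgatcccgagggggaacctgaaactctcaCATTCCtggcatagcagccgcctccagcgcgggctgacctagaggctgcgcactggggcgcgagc
Srf: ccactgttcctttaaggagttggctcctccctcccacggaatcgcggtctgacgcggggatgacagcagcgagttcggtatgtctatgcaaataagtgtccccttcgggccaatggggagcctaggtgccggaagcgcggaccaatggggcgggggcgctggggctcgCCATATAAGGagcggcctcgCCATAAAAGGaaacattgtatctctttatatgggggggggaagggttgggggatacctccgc
Actg1: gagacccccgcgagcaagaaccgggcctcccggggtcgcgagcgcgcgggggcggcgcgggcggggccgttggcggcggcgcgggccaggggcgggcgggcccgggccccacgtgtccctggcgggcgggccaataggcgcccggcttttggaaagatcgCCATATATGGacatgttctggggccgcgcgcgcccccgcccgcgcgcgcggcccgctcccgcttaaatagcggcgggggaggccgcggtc
Vcl: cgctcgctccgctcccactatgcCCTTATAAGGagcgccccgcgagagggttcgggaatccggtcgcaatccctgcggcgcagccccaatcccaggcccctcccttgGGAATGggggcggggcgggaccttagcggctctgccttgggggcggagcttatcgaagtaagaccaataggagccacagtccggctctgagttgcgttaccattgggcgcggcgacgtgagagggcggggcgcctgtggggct
Rhob: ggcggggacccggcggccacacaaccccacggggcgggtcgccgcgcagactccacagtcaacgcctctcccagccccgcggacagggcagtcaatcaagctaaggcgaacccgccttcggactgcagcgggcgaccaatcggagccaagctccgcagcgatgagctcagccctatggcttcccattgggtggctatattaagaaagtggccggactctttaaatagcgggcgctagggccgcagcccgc
The TEAD motif began at position -103 from the start of Ccn1 and at -65 from that of Amotl2. Srf itself held 2 CArG boxes, at -82 and -62, Actg1 held 1 at -90, and Vcl held a CArG box at -227 and a TEAD motif at -143. Neither set of letters was found in the Rhob window.

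Most of these genes were little different between the arrays. Read by the probe set of the highest mean level, 6 of them differed by at least 1.2-fold: Rhob, Thbs1, Ccn2 and Ccn1 were higher with J147, and Amotl2 and Ajuba were lower. Values are log2 intensities as deposited, and the difference is J147 minus vehicle after each array was scaled to a median of 100, a step that moved every difference by -0.0046. Probe sets with a mean scaled intensity above 100 were scored, and a gene was read from the scored probe set of the highest mean level. Of the 38 genes, 35 were scored. Here and below, counts of genes higher or lower by any amount compare the deposited values. Of the 35, 22 were higher by any amount with J147, 11 were lower and 2 had identical values on both arrays. Over all 10611 scored genes, 38.8% were higher, 46.6% were lower and 1555 were identical. That share runs with level: of the 500 scored probe sets nearest to each member in level, called its neighbours here, a median of 46.8% were higher. With the probe sets of a gene averaged, 19 members were higher and 14 lower. At 1.5-fold, 1 member was higher and none was lower, where 0.556% of all scored genes were higher and 0.81% lower. At 1.2-fold, 4 members were higher (background 3.6%) and 2 were lower (background 6.23%). No member read in this way differed by 2-fold, as 0.066% of genes did upward and 0.0754% downward. Taken singly, 1 member probe set was at least 1.5-fold higher and 2 were at least 1.5-fold lower, against 0.856% and 0.781% of all scored probe sets.

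**Figure D1:**
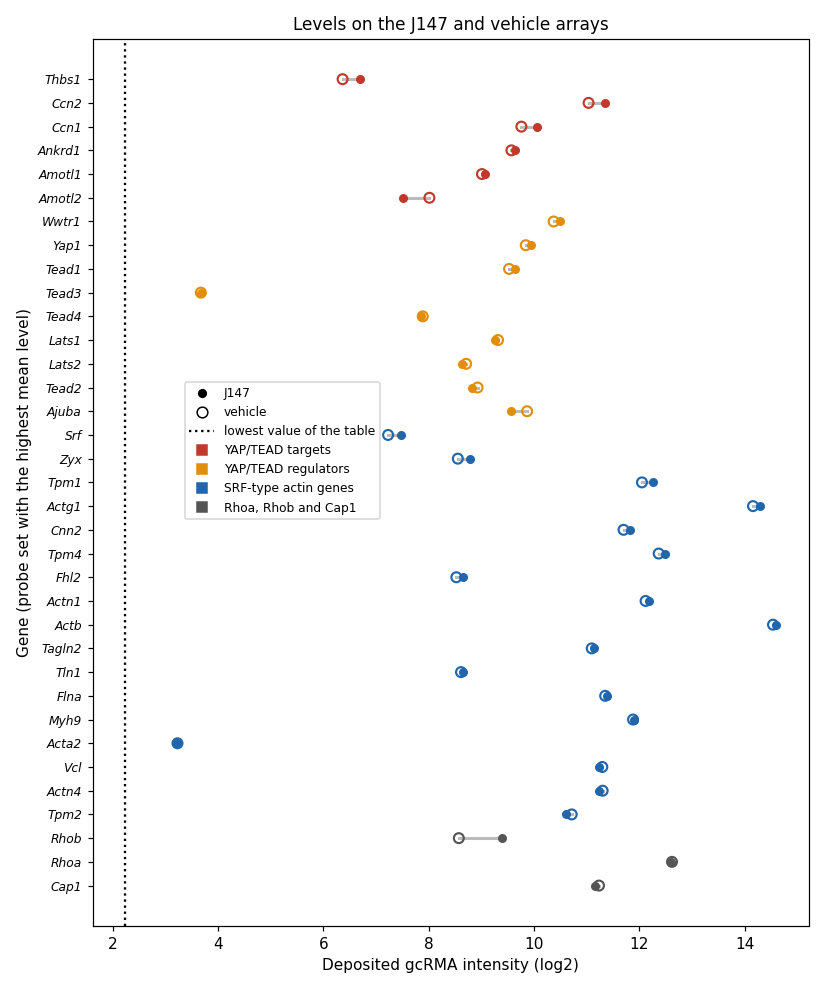
Log2 gcRMA intensity (horizontal axis) of the 35 scored genes (vertical axis), each by the probe set of the highest mean level, on the J147 array (filled) and the vehicle array (open), 1 array each. Rhob has the longest grey line, with 9.39 for J147 and 8.57 for vehicle.

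Most of the array differed little. Between the conditions 98.4% of scored probe sets stayed within 1.5-fold, and the SD of the log2 difference was 0.18. The hybridization spikes differed by a median of 0.13, the labelling spikes by -0.15 and the 18S rRNA controls by -0.63, and their part in any result was not tested. The lowest value of the table, the gcRMA floor, was 2.234. Of 7 neuronal markers 2 lay above it, of 7 fibroblast markers all 7 did, and of 6 smooth muscle markers 3 did. Map2 and Snap25, which define neurons, were at the floor on both arrays, as was Myh11, which defines smooth muscle. Other markers of both kinds were well above it. The highest neuronal marker, Tubb3, had 8.232 for J147 and 7.997 for vehicle. The highest smooth muscle marker, Smtn, had 5.94 for J147 and 6.04 for vehicle.

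Rhob, a small GTPase of endosomes and the cytoskeleton and a known immediate early gene, was the member furthest from 0 when genes were read in this way, although 2 probe sets of Ccn1, given below, were further from it. Its single probe set 1449110_at had 9.39 for J147 and 8.57 for vehicle, a difference of 0.82 or 1.76-fold higher with J147. The neighbours of Rhob had an SD of 0.15, and 1 of them differed by at least as much. It was at place 21 of the 10611 scored genes ordered from the highest difference. Its close relative Rhoa, the GTPase that drives stress fibres, had 12.61 for J147 and 12.62 for vehicle, a difference of -0.02, and its other scored probe set differed by -0.01. Cap1, which returns actin monomers to the pool, had differences of -0.08 and -0.06 in its 2 probe sets.

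The 6 YAP/TEAD targets lay wide apart, with 5 higher and 1 lower, where a median of 47.0% of their neighbours were higher. With the probe sets of a gene averaged, or by the probe set with the largest difference, Ccn1 was lower too, and 4 were higher and 2 lower. The matricellular genes, whose proteins are secreted to the matrix, formed the upper end. Ccn2 (connective tissue growth factor, one probe set) had 11.36 for J147 and 11.04 for vehicle, 1.25-fold higher, and 11 of its 500 neighbours were as far from 0. Thbs1, which encodes thrombospondin 1, had 6.70 for J147 and 6.36 for vehicle, 1.26-fold higher at a level where the neighbours were more scattered, with an SD of 0.24 and 70 differing by as much. Its second probe set was not scored, at 2.27 on both arrays. Ankrd1, a nuclear and sarcomeric ankyrin repeat protein, was higher by 0.06 and 0.22 in its 2 probe sets, with 9.63 for J147 and 9.57 for vehicle in the first and 9.04 for J147 and 8.82 for vehicle in the second.

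The angiomotin genes, whose proteins bind YAP and hold it at junctions or actin, differed from each other. Amotl2, also a feedback target of YAP, was the lowest of the 35 members, with 7.52 for J147 and 8.01 for vehicle, 1.42-fold lower, and 11 of its neighbours were as far from 0. It has 1 probe set. Amotl1 differed by 0.05 and 0.02 in its 2 scored probe sets. The 6 targets had a median of 0.17 and an SD of 0.32 over genes, where all scored genes had a median of -0.0046 and an SD of 0.17. Other genes known as YAP/TEAD targets were listed separately. Of 17 such genes 14 were scored. Of these, 4 were higher by any amount and 9 lower (all scored genes: 38.8% and 46.6%), with a median of -0.06. For this and the other lists of genes outside the members, the shares beside the counts are not matched in level. At 1.5-fold 1 of them was lower and none higher (all scored genes: 0.81% and 0.556%). It was Gadd45a, a growth arrest gene that is also a p53 target, at 7.90 for J147 and 8.54 for vehicle, 1.57-fold lower.

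**Figure D2:**
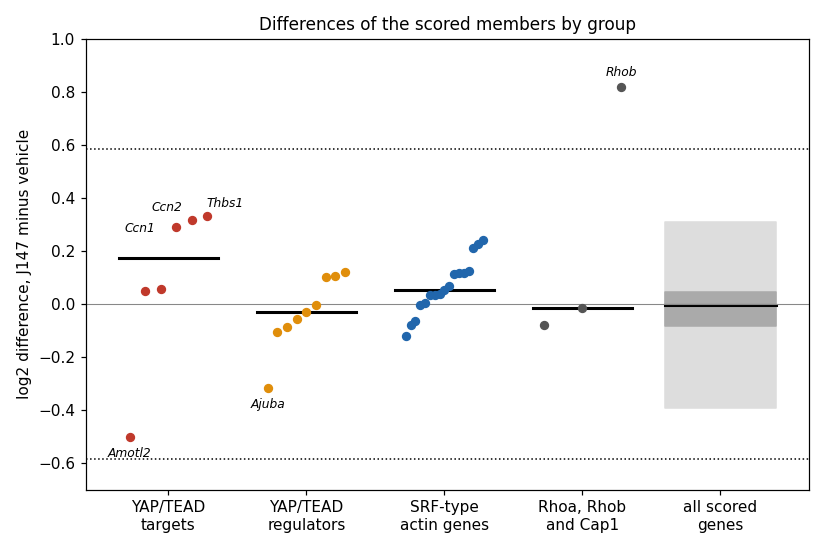
Log2 difference, J147 minus vehicle (vertical axis), of each scored gene in the 4 groups (points), with the median of a group as a black bar. For all 10611 scored genes the dark box spans the quartiles and the light box the central 95%, from -0.39 to 0.31. Dotted lines mark 1.5-fold, and genes at least 1.2-fold different are named.

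The 4 probe sets of Ccn1 gave opposite answers. Ccn1 encodes a secreted integrin ligand and is both an immediate early gene and a YAP and SRF target. Probe set 1416039_x_at had 10.05 for J147 and 9.76 for vehicle, a difference of 0.29 or 1.22-fold higher. Probe set 1438133_a_at had 9.37 for J147 and 8.98 for vehicle, 1.31-fold higher, and 7 of its 500 neighbours differed by as much. The other pair was on the opposite side of 0. Probe set 1457823_at had 4.59 for J147 and 5.87 for vehicle, a difference of -1.29 or 2.44-fold lower. Probe set 1442340_x_at had 4.27 for J147 and 5.41 for vehicle, a difference of -1.14 or 2.20-fold lower. None of the 500 neighbours of either differed by as much, where the SDs were 0.24 and 0.23. Over the 22545 scored probe sets, these were the 3rd and the 8th from the lowest difference, and they were the 2 member probe sets at least 1.5-fold lower, where 0.781% of all scored probe sets were.

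**Figure D3:**
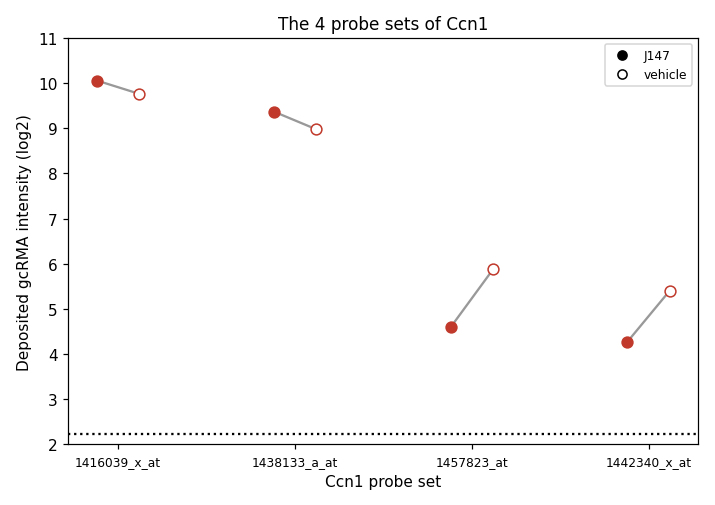
Log2 gcRMA intensity, as deposited (vertical axis), of the 4 probe sets of Ccn1 (horizontal axis) on the J147 array (filled) and the vehicle array (open), joined by lines. The first pair is higher with J147, by 0.29 and 0.39, and the second pair lower, by -1.29 and -1.14, and all lie above the gcRMA floor (dotted).

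The annotation lists one and the same source sequence for both Ccn1 probe sets that were lower, so they are not independent measures, and a different one for each of the others. The suffixes _x_at and _a_at mark probes that can match other transcripts or several transcripts of one gene. Which part of the Ccn1 transcript each probe set reads was not analysed here. The span between the highest and the lowest Ccn1 probe set was 1.68 log2 units. Among the 5194 genes with over 1 scored probe set this was the widest, against a median span of 0.14 and a 95th percentile of 0.53. Of those genes, 4 had one probe set at least 1.2-fold higher together with another at least 1.5-fold lower.

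Other members with several probe sets were closer together. Of the 21 members with over 1 scored probe set, 9 had probe sets on both sides of 0. In 7 the probe sets were higher or identical, and in 5 they were lower or identical. The same shares over all genes with several scored probe sets were not taken, so these counts have no background. Without Ccn1 the widest span was 0.34, that of Srf. The 5 scored probe sets of Lats2 ran from -0.16 to 0.17, the 5 of Myh9 from -0.17 to 0.13 and the 4 of Tpm2 from -0.12 to 0.21.

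**Figure D4:**
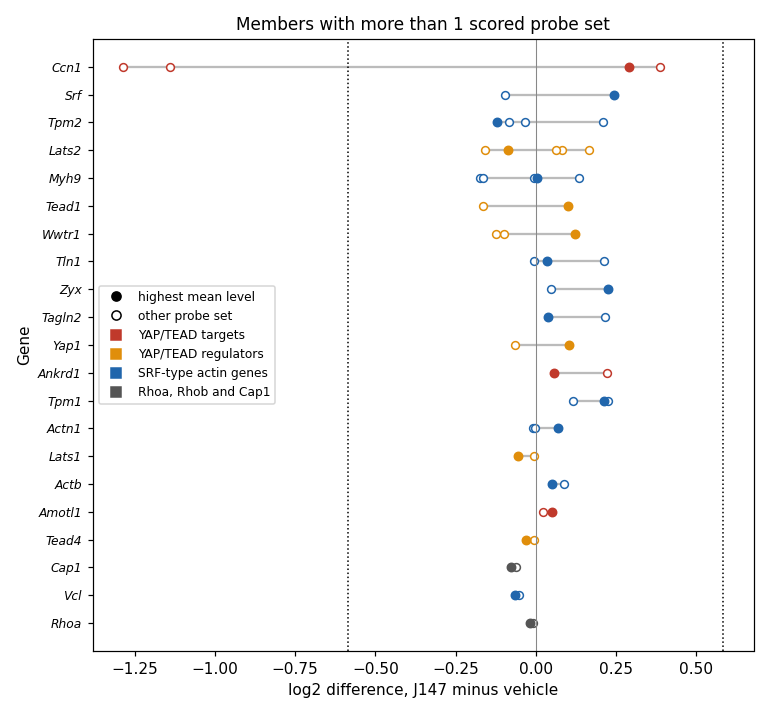
Horizontal axis: log2 difference (J147 minus vehicle) for every scored probe set of the 21 members that have over 1 (vertical axis), ordered by span. Filled points are the probe sets with the highest mean level, open points the others, and dotted lines mark 1.5-fold. Ccn1 spans 1.68 log2 units and every other member at most 0.34.

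The YAP/TEAD regulators lay close to 0, apart from Ajuba. The co-activators had 9.95 for J147 and 9.84 for vehicle (Yap1) and 10.50 for J147 and 10.37 for vehicle (Wwtr1), differences of 0.10 and 0.12. Other probe sets of these genes had the opposite sign, at -0.06 for Yap1 and at -0.10 and -0.13 for Wwtr1, so no direction was shared by all probe sets of either gene. Among the DNA-binding partners, Tead1 had 0.10 and -0.16 in its 2 probe sets, Tead2 had -0.11 and Tead4 had -0.03. Tead3 had an identical value of 3.67 on both arrays. The kinases that phosphorylate YAP differed by -0.06 (Lats1) and -0.09 (Lats2). Ajuba, a LIM protein that restrains LATS kinases at junctions, had 9.55 for J147 and 9.87 for vehicle, 1.25-fold lower, and 15 of its 500 neighbours differed by as much. The 9 regulators had a median of -0.03, with 3 higher, 5 lower and 1 identical, where a median of 43.4% of their neighbours were higher. Of 14 scored genes of the Hippo kinase core and its upstream regulators, 8 were higher and 6 lower (all scored genes: 38.8% and 46.6%). These shares of all genes are not matched in level to the list. Their median was 0.01. None reached 1.5-fold, and the largest differences were -0.38 for Vgll4, a TEAD co-repressor, and 0.27 for Wwc1, the LATS activator KIBRA.

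The SRF-type actin genes were shifted little, but mostly one way. Of the 17 scored, 13 were higher with J147, 3 were lower and 1 was identical, a share higher of 76.5%. Among the 500 neighbours in level of each, the share higher had a median of 49.0%, with 30.6% to 56.0% over these genes, so that the 38.8% of all genes is too low a background for genes of this level. The median difference was 0.05 and the range -0.12 to 0.24, with none at 1.2-fold in either direction.

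Srf itself, the transcription factor of the group, had 7.48 for J147 and 7.23 for vehicle by 1418255_s_at, 1.18-fold higher. Its other probe set, 1418256_at, had 6.79 for J147 and 6.88 for vehicle, a difference of -0.10, so the 2 disagreed in direction. Both lay within reach of their neighbours, of which 94 and 272 differed by as much. Zyx, the focal adhesion protein zyxin, had 8.78 for J147 and 8.55 for vehicle, a difference of 0.22 or 1.17-fold, with 61 neighbours as far from 0. Tpm1, a tropomyosin that coats actin filaments, was higher in all 3 scored probe sets, by 0.21, 0.12 and 0.22. The first had 12.27 for J147 and 12.05 for vehicle, and 27 of its neighbours differed by as much. Of the other tropomyosins, Tpm4 differed by 0.12 and Tpm2 by -0.12.

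The cytoplasmic actins were higher by small amounts at a level where neighbours scattered little. Actg1 had 14.29 for J147 and 14.16 for vehicle, a difference of 0.13 beside a neighbour SD of 0.07, and 37 of the 500 differed by as much. Actb had 14.59 for J147 and 14.54 for vehicle in its first probe set and 14.21 for J147 and 14.12 for vehicle in its second. All 5 Actb probe sets, with the 3 array controls counted, were higher by between 0.05 and 0.10. The control probe sets for the 3′ and 5′ ends differed in this by -0.03, a measure of RNA integrity. The probe sets with suffix _s_at may read several near-identical actins, so Actb and Actg1 may share signal.

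By the probe set of the highest mean level, the remaining actin-binding genes differed by less than 0.13. Cnn2, a calponin of non-muscle cells, differed by 0.12, the LIM cofactor Fhl2 by 0.11, the crosslinkers Actn1 by 0.07 and Flna by 0.03, Tagln2 (transgelin 2) by 0.04, the integrin linker Tln1 by 0.03 and the non-muscle myosin Myh9 by 0.00. Other probe sets of 3 of these genes lay further out, as given above for Myh9. The second of Tagln2 had 11.17 for J147 and 10.95 for vehicle, a difference of 0.22 with 39 neighbours as far from 0. The second of Tln1, far dimmer, had 4.69 for J147 and 4.47 for vehicle, a difference of 0.21 with 122 neighbours as far from 0. The adhesion protein Vcl had 11.24 for J147 and 11.30 for vehicle, a difference of -0.07, and Actn4 one of -0.08. Of the genes that mark contractile smooth muscle, Tagln, Cnn1 and Myl9 could not be read, being at the gcRMA floor on both arrays. Acta2 was scored, with an identical 3.23 on both arrays, and its other probe sets were at the floor. A value at this floor does not show that the mRNA was absent.

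Set side by side by the probe set of the highest mean level, the 2 systems had close medians and different widths. The 15 YAP/TEAD targets and regulators had a median of 0.05 and the 17 SRF-type actin genes a median of 0.05, a difference between medians of -0.0014. The SD over genes was 0.22 in the YAP/TEAD group and 0.10 in the actin group. The 2 groups also differed in level, with a median of 9.29 in the YAP/TEAD group and 11.27 in the actin group, and in the SD of the neighbours, with a median of 0.15 in the YAP/TEAD group and 0.12 in the actin group. The part of level in the widths was not tested. The YAP/TEAD group ran from -0.50 to 0.33, and its targets and regulators had medians of 0.17 and -0.03. The gap widened when genes were read in other ways. Averaged over the probe sets of each gene the YAP/TEAD median was -0.017, and by the probe set with the largest difference it was -0.030 while the actin median was 0.12.

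**Figure D5:**
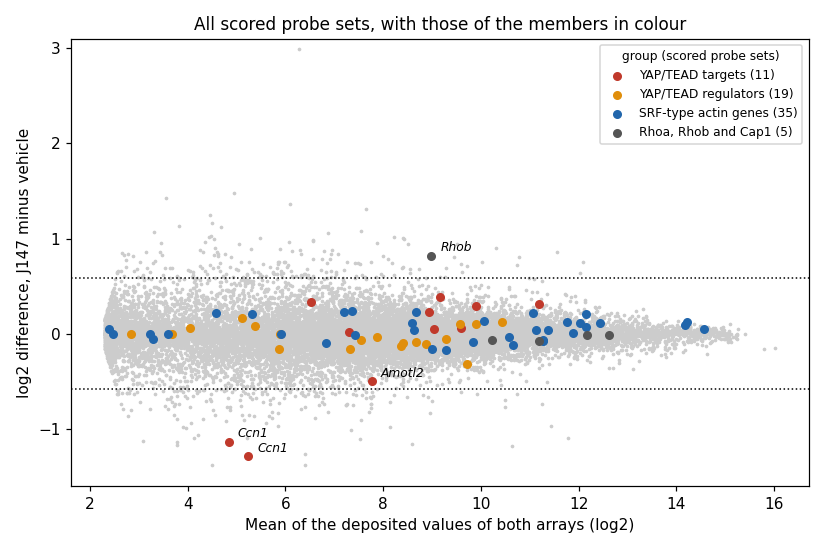
Log2 difference, J147 minus vehicle (vertical axis), against the mean of the deposited log2 values of both arrays (horizontal axis) for all 22545 scored probe sets (grey) and the 70 of the members (colours by group). Dotted lines mark 1.5-fold. The Rhob probe set lies above the upper line and 2 Ccn1 probe sets below the lower one.

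The SRF cofactors differed little, and Mrtfa and Elk1 lay furthest from 0. Of 6 scored, 4 were lower (all scored genes: 46.6%) and 1 was identical. Of the 4, Scai and Mrtfb were at -0.02 and -0.01, with 408 and 443 of their 500 neighbours as far from 0. Elk4 was higher as deposited, by less than 0.01, and at -0.0039 after scaling. The median was -0.01. Mrtfa, the actin-sensing cofactor, had 8.13 for J147 and 8.41 for vehicle, 1.23-fold lower, with 40 neighbours as far from 0. Elk1, a TCF that answers ERK, differed by -0.25, with 114 neighbours as far from 0. A further list of 21 scored actin and actin-binding genes had a median of 0.01. Of these, 12 were higher and 8 lower as deposited (all scored genes: 38.8% and 46.6%). The 38.8% is not matched to the level of these genes, and no share among their neighbours was taken. Cfl1, 1 of the 12, was at -0.0040 after scaling. At 1.5-fold 1 was lower and none higher (all scored genes: 0.81% and 0.556%). This gene, Filip1l, a relative of a filamin-interacting protein, had 9.60 for J147 and 10.23 for vehicle, 1.55-fold lower. None of its 500 neighbours differed by as much. In the SRF-TCF immediate early genes 3 of 9 scored were at least 1.5-fold higher, where 0.556% of all scored genes were, and none was as much lower. By any amount 7 were higher and 2 lower (all scored genes: 38.8% and 46.6%). Fos, 1 of the 2, had 2.46 for J147 and 2.62 for vehicle, near the gcRMA floor of 2.234. Its difference was -0.16, with 79 neighbours as far from 0. The median of this list was 0.45, but 0.31 with averaged probe sets, 0.31 with no filter on intensity and 0.18 without suffixed probe sets. Under each of these readings 3 genes were at least 1.5-fold higher. These 3 were Egr3 (7.98-fold), Egr1 (2.49-fold) and the nuclear receptor Nr4a1 (1.72-fold). Egr3 and Egr1 are already among the top raised genes that the study reported from this array experiment. The list was also chosen with earlier results of these data known, so the count of 3 of 9 is a description only.

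The promoter windows, taken 250 bases before to 50 after each start, were given for 32 of the 38 genes, as 38 windows because some have several starts. Both strands were searched, and no match of one motif overlapped one of the other. A CArG box was in 7 of these windows (18.4%), all of the SRF-type actin group, and in 1.63% of all 32851 windows. The 6 genes with one were Actg1, Cnn2, Fhl2, Srf, Vcl and Myl9. Of the 5 of these that were scored, 4 were higher by the probe set of the highest mean level. The differences were 0.13, 0.12, 0.11 and 0.24 for Actg1, Cnn2, Fhl2 and Srf, and Vcl was not higher, at -0.07. Among the neighbours of these 5 genes, between 41% (Srf) and 56% (Actg1) were higher. The other probe set of Srf was lower, at -0.10. A TEAD motif was in 16 windows (42.1%) of 14 genes, and in 14.7% of all windows. The 14 were 6 SRF-type actin genes, 5 YAP/TEAD regulators and 3 YAP/TEAD targets. By the probe set of the highest mean level they differed by a median of 0.01, with Ccn1 at 0.29 and Amotl2 at -0.50 as the ends. Other probe sets of Ccn1 were lower, as given above. The SRF-type genes were listed as known SRF targets and the YAP/TEAD targets as known TEAD targets, so neither motif is independent of the lists. A match is a description of the letters only.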

How the data were processed

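RNA of HT22 cells was isolated after 1 h with J147 or vehicle, labelled with biotin and hybridized to Affymetrix Mouse Genome 430 2.0 arrays, 1 per condition. The authors assessed quality with Affymetrix Expression Console 1.0, ran gcRMA in R and deposited the log2 intensities. The gcRMA version and a genome build are not given in the sources used here. Precision is limited by the number of arrays. The values were scaled to a median of 100 over 45037 probe sets, controls left out. Probe sets with a mean above 100 were scored (22545). Symbols were updated through the Entrez number to a RefSeq table of GRCm38.p6, and 2 probe sets annotated to a member and another gene were left out. The members, lists and named genes were chosen with earlier results of these data known. All members are reported, with up to 4 genes at 1.5-fold from each other list, or else the 2 largest differences, and 1 list is not reported here. Elk4, Cfl1, Fos, Scai, Mrtfb, Tubb3 and Smtn were named after their values were seen. Each difference was set beside 500 scored probe sets, its neighbours in mean level. Promoters are from RefSeq (32 of 38 genes matched). The calculations used Python 3.11.15, numpy 2.4.6 and pandas 2.3.3, with figures by matplotlib 3.10.9, and were tested on simulated data. Alternatives were the scaling, a pseudocount of 50, the filter, the reading of a gene, the threshold and the make-up of the groups.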

Additional observations from a re-analysis of the deposited data

How the results depend on the processing

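Of 315 values recomputed under an alternative, 283 moved by less than the scatter beside them (the SD of the neighbours in level for a gene, the SD over genes divided by the root of n for a median, 1.5 times for a count), 30 moved further and 2 changed sign at over 1.5-fold. Both of these were Ccn1, whose log2 difference was -1.29 when the probe set with the largest difference stood for the gene and when suffixed probe sets (_a_at, _s_at, _x_at) were dropped. The number of members at least 1.5-fold lower was then 1 in each case, since Ccn1 was read from 1457823_at. At 1.2-fold 4 members were higher and 2 lower, and at 2-fold 0 were higher. By construction, a lower threshold cannot reduce these counts and a higher one cannot raise them. The YAP/TEAD median was -0.017 when probe sets were averaged, -0.030 by the largest difference and 0.17 for the targets alone. The SRF-type actin median was 0.12 by the largest difference and 0.10 without suffixed probe sets. The median of the YAP/TEAD group minus that of the actin group was -0.0899 with averaged probe sets, -0.15 by the largest difference and 0.12 for the targets alone. Where neither the genes nor the threshold were changed, the cause was not tested. The small differences of Srf, Wwtr1, Tead1, Lats2, Myh9 and Tpm2 were among those that moved, with the sign of another probe set. Rhob stayed between 0.81 and 0.83 under the scalings, the pseudocount and the readings of a gene. The 2 Ccn1 probe sets with lower values stayed between -1.28 and -1.05 under the scalings and the pseudocount. Leaving out identical values and subtracting the median of the neighbours in level, as well as the alternatives for the lists of other genes, were chosen after seeing the data. No paired analysis was possible because each condition has 1 array. Changes of probe sets at the gcRMA floor cannot be seen.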
